A study of Mus musculus with 24 samples.

Results

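Transcript levels of 10 genes of the NF-kB system were examined in MS03 cells, a murine *Nf2*-/- Schwann cell line, after 24 hours with vehicle or with 1 of 7 compounds directed at focal adhesion kinase (FAK, encoded by *Ptk2*). The genes were chosen by name and matched to the gene names in the count table, where 10 of 10 were found among 49315 genes, and 10 of 10 passed the filter on low counts that left 16070 genes for testing. They are the subunit genes *Nfkb1*, *Nfkb2*, *Rela* and *Relb*, the feedback genes *Nfkbia*, *Tnfaip3* and *Birc3*, and the secreted targets *Ccl2*, *Cxcl1* and *Csf1*. MS03 is a single immortalized line, made by Cre infection of Schwann cells from an *Nf2* flox/flox mouse, so all 8 groups share the *Nf2*-/- genotype and no *Nf2*-proficient cells were compared. *Nf2* RNA was still counted (2360 to 5066 counts per library), and counts per gene do not show which exons are missing. The control group received DMSO. Treated cells received 1 µM of a kinase inhibitor (defactinib, VS-4718, GSK2256098 or IN10018) or of PROTAC FAK degrader 1, or 0.1 µM of the degraders GSK215 or BSJ-04-0146. A PROTAC is a bifunctional molecule that brings its target to a ubiquitin ligase for degradation. Each group had 3 libraries labelled as biological replicates, and since the labels do not say that they came from separate cultures, p-values measure the spread between these libraries.

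NF-kB is a family of dimeric transcription factors that IkB proteins hold in the cytoplasm of unstimulated cells. Signals from receptors such as those for TNF and interleukin-1 activate the IkB kinase complex, IkB is degraded, and dimers such as p50 with RelA enter the nucleus, whereas a slower noncanonical branch processes p100 to p52 and releases RelB. The induced genes include inhibitors of the same pathway and factors that draw and sustain myeloid cells, which in injured nerve come in part from Schwann cells.

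Library totals ranged from 14472462 to 27449516 counts, and the 9 libraries of the 3 PROTACs (14472462 to 21588406) were shallower than those of the other groups (21654444 to 27449516). Of the Schwann cell markers, *Sox10* was present at 12.2 to 97.6 CPM (group means of counts scaled to library size with TMM factors) and *Mbp* at 15.4 to 68.4 CPM, while *S100b* did not exceed 18 counts. The 10 Schwann cell markers summed to 72.1 to 75.8 CPM in DMSO, 79.2 to 161 CPM in the kinase inhibitor and degrader 1 groups, 303 to 316 CPM with GSK215 and 278 to 304 CPM with BSJ-04-0146. The 10 macrophage markers summed to 4.03 to 4.59 CPM in DMSO, 4.24 to 6.67 CPM in the kinase inhibitor groups, 9.19 to 10.8 CPM with BSJ-04-0146, 7.53 to 9.06 CPM with GSK215 and 11.9 to 12.8 CPM with degrader 1, much of it *Cd68* (3.35 to 10.9 CPM as group means); *Tyrobp* and *C1qa* were at 0 in 24 of 24 libraries, and *Ptprc* was at 0 in 22 of 24 and *Adgre1* in 23 of 24. Endothelial markers summed to at most 0.790 CPM and lymphocyte markers to at most 0.105 CPM. Of 6 fibroblast markers, *Col1a1* and *Col3a1* were abundant (286 to 666 CPM) and *Lum* was at 0 in 24 of 24 libraries. *Ptk2* RNA, which reports neither kinase activity nor protein degradation, was lower than in DMSO by 0.13 to 0.29 on the log2 scale with defactinib, VS-4718, GSK2256098, GSK215 and BSJ-04-0146 (edgeR quasi-likelihood test, adjusted p = 0.0101 or smaller in each). For IN10018 the log2 fold change was -0.07 (adjusted p = 0.183) and for degrader 1 it was 0.03 (adjusted p = 0.396, same test).

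The genes lie at separate sites of the GRCm38 genome, and 7 of the 10, all but *Nfkb1*, *Relb* and *Ccl2*, were matched in the RefSeq promoter table used (GRCm38.p6). The 250 bases before each start were searched on both strands for the NF-kB consensus, the motif recognized by the dimers, and for the looser pattern GGGNNNNNCC, which contains the consensus and so overlaps it. Some of the 7 genes have several starts, which gave 10 windows. A consensus match was found in 7 of the 10 windows, against 3.9% of 32851 such windows over all genes. By gene, a match was found for 5 of 7 (*Nfkb2*, *Nfkbia*, *Tnfaip3*, *Cxcl1* and *Csf1*) and not for *Rela* or *Birc3*, and 1 of the *Tnfaip3* windows held none. The looser pattern was in 10 of the 10 windows and in 45.8% of all windows. Complete windows are given for *Nfkbia*, a feedback gene, and *Csf1*, the matched secreted target with the higher counts, on the minus strand at chr12:55492648-55492897 and chr3:107760470-107760719, with the consensus match in capitals; its first base lies 29 bases before the *Nfkbia* start and 154 bases before the *Csf1* start.
Nfkbia: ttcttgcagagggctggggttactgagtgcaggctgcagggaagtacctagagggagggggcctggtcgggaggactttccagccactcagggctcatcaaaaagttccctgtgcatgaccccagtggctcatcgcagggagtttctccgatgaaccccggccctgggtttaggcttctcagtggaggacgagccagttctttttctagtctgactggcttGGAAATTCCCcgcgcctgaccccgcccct
Csf1: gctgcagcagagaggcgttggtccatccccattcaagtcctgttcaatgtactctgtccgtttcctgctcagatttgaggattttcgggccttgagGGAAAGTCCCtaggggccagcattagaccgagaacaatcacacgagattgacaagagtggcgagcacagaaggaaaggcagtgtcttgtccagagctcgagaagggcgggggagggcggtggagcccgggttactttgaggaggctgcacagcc

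For the other 3 genes with a match, 30 bases each are given, with the bases of a consensus match in capitals (1 match for *Tnfaip3*, and 2 overlapping matches, shifted by 1 base, for *Nfkb2* and for *Cxcl1*), as examples of the matched sequence. For each gene the piece with the match farthest upstream of the first start listed is given. The *Nfkb2* piece is at chr19:46304689-46304718 on the plus strand, the *Tnfaip3* piece at chr10:19015516-19015545 on the minus strand and the *Cxcl1* piece at chr5:90891165-90891194 on the plus strand, with capitals that begin 39, 125 and 71 bases before the respective start. Further consensus matches, for which no piece is given, were GGAAATCCCC 12 bases before the same *Tnfaip3* start, GGGGCTTTCC 11 bases before the same *Nfkb2* start, and GGAATGTCCC and GGGACTTTCC, 236 and 225 bases before the other *Nfkb2* starts. These matches describe the sequence only, and binding was not measured.
Nfkb2: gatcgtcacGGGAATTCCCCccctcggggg
Tnfaip3: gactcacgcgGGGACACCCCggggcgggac
Cxcl1: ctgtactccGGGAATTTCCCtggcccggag

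Levels between genes were compared per kilobase of exon in the DMSO libraries. *Csf1* was highest with 87.2 ± 0.411 CPM per kb (SD, n = 3), followed by *Rela* (29.3 ± 1.34), *Nfkb2* (29.2 ± 0.358), *Nfkbia* (27.5 ± 0.320), *Ccl2* (23.8 ± 0.741) and *Nfkb1* (11.5 ± 0.160). *Relb* and *Tnfaip3* were lower, at 3.56 ± 0.432 and 3.56 ± 0.0735 CPM per kb. *Cxcl1* had 1.48 ± 0.349 and *Birc3* 0.355 ± 0.0343 CPM per kb. In counts, *Cxcl1* had 45 to 90 per library and *Birc3* 19 to 62, and the mean of *Birc3* was under 50 counts in 7 of 8 groups. These 2 genes are too low to judge changes of moderate size, with a biological coefficient of variation (the replicate spread fitted by edgeR) of 12.6% and 14.7%, against 2.17% to 4.93% for the other 8 genes, whose lowest count in any library was 168.

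**Figure D1:**
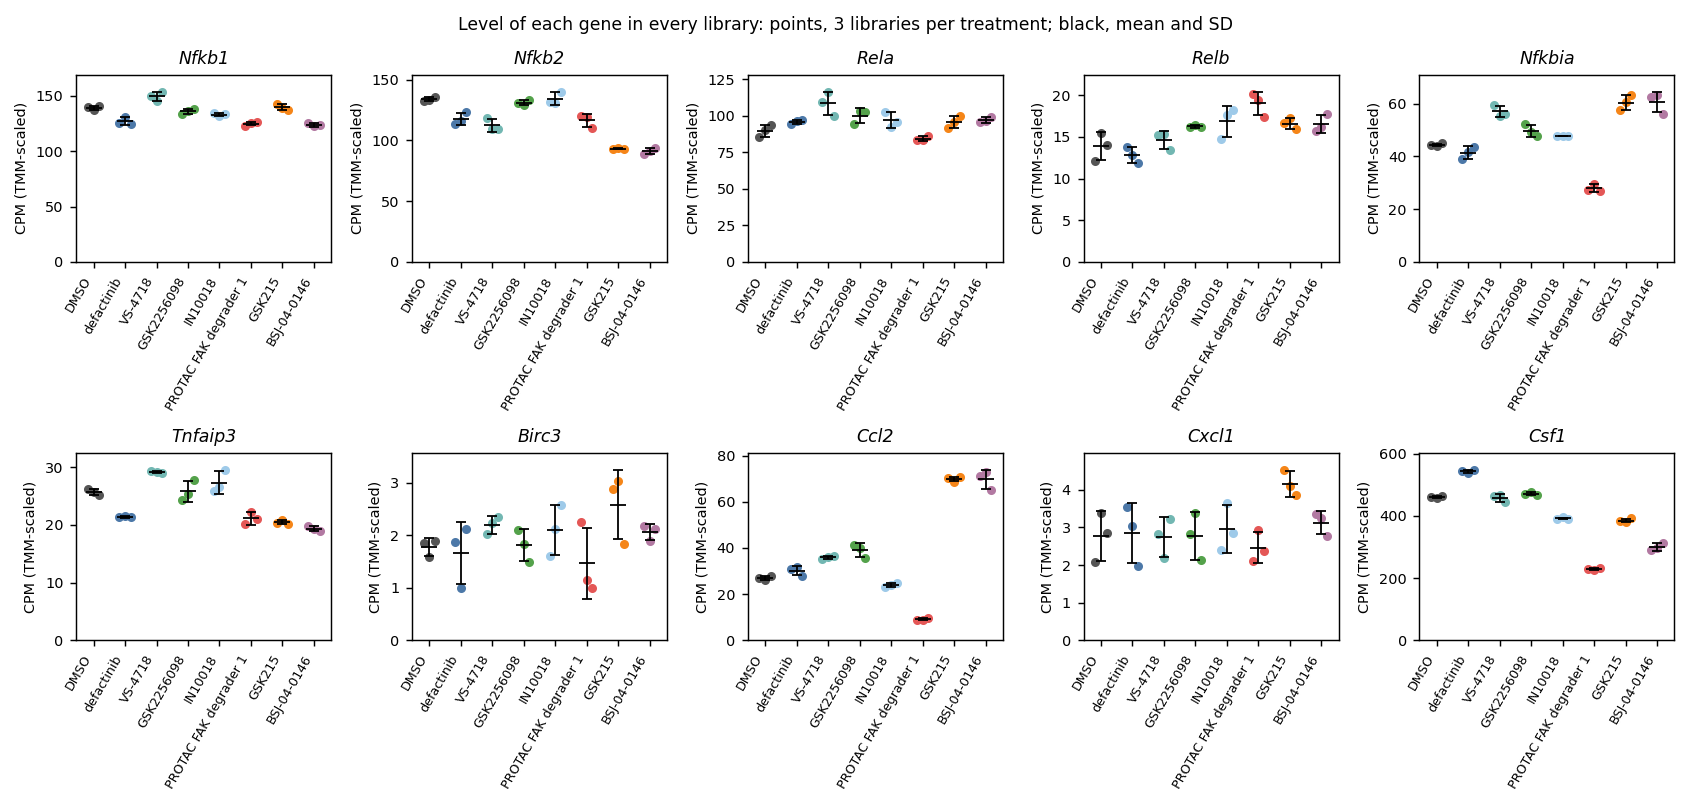
CPM of the 10 genes (vertical axis, scaled by library size with TMM factors, starting at 0) in the 8 treatment groups, with 1 point per library and the mean and SD of 3 libraries in black. *Ccl2* ranged from 8.76 CPM in degrader 1 libraries to 73.0 CPM in BSJ-04-0146 libraries, whereas the libraries of different groups overlap for most of *Birc3* and *Cxcl1*.

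Against DMSO, the 10 genes did not move as a block. With defactinib, 5 of 10 passed the threshold (edgeR quasi-likelihood test, Benjamini-Hochberg adjusted p under 0.05 over 16070 genes), 2 higher and 3 lower, where 22.4% of all genes tested passed it (11.4% higher and 11.0% lower). VS-4718 changed 6 of 10 (5 higher, 1 lower) beside 39.2% of all genes (20.4% higher and 18.9% lower). For GSK2256098 the count was 3 of 10, all higher, beside 12.5% (6.36% higher and 6.09% lower), and for IN10018 it was 3 of 10 (1 higher, 2 lower) beside 13.3% (6.44% higher and 6.85% lower). Degrader 1 changed 7 of 10 (1 higher, 6 lower), GSK215 7 of 10 (4 higher, 3 lower) and BSJ-04-0146 8 of 10 (4 higher, 4 lower), beside 66.8% (34.1% higher and 32.7% lower), 54.7% (27.4% and 27.2%) and 54.6% (27.7% and 26.9%) of all genes, so that with these 3 compounds most of the 16070 genes tested passed as well. The GSK2256098 count was 1 without DMSO replicate 1 or GSK2256098 replicate 2, and the IN10018 count was 1 without DMSO replicate 1 or 3 or IN10018 replicate 2 or 3. The median log2 fold change of the 10 genes was -0.08, 0.14, 0.03, 0.08, -0.22, 0.17 and 0.14 for defactinib, VS-4718, GSK2256098, IN10018, degrader 1, GSK215 and BSJ-04-0146, and that of all genes lay between -0.0044 and 0.021. In the same order of compounds, libraries did not overlap those of DMSO for 5747, 7645, 5008, 4984, 11207, 9747 and 9528 of the 16070 genes. All 7 comparisons share the DMSO libraries. In these bulk samples a change in the share of cells that express a gene and a change in RNA per cell cannot be told apart. Of 39 calls, 28 were made under each of 13 alternative settings, and the libraries whose removal ended a call are named with each gene.

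**Figure D2:**
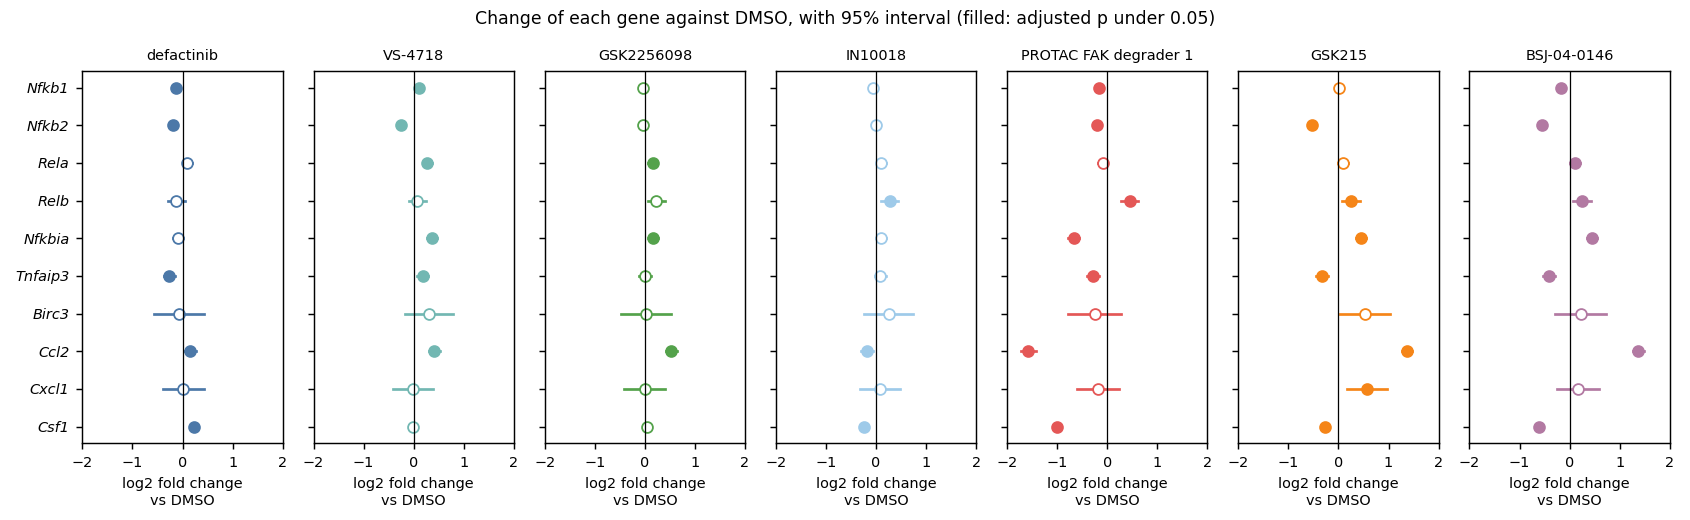
Log2 fold change against DMSO (horizontal axis) of the 10 genes (vertical axis) for each compound, with the 95% interval as a line where it is wider than the point and filled points for adjusted p under 0.05. *Ccl2* lies at 1.37 with GSK215 and BSJ-04-0146 and at -1.58 with degrader 1, and the long lines belong to *Birc3* and *Cxcl1*.

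*Ccl2* (chr11:82035571-82037453, plus strand), which encodes a chemokine that recruits monocytes through the receptor CCR2, had the widest range, 7.73-fold between the highest and the lowest group mean. DMSO libraries had 27.1, 26.2 and 27.9 CPM. With GSK215 the libraries had 70.2, 68.8 and 70.7 CPM, and with BSJ-04-0146 71.0, 73.0 and 65.1 CPM. All 6 were above every other library of the series. Degrader 1 libraries had 8.82, 8.76 and 9.56 CPM. They were the lowest 3 of the 24, also in counts (168 to 192). GSK2256098 libraries had 41.4, 39.9 and 35.5 CPM, and VS-4718 libraries 35.2, 36.1 and 36.7 CPM. Both groups were above DMSO and overlapped each other. Defactinib libraries, with 31.0, 31.8 and 27.9 CPM, were just above the DMSO range, and IN10018 libraries, with 23.2, 23.9 and 24.7 CPM, were just below it.

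In the edgeR quasi-likelihood test, *Ccl2* was higher than in DMSO by 1.37 on the log2 scale with GSK215 (SE 0.053, adjusted p = 2.71e-23), which placed it at rank 621 of 16070 genes by the size of its change. The increase with BSJ-04-0146 was also 1.37 (SE 0.054, adjusted p = 3.32e-23). At 1 µM, *Ccl2* rose by 0.53 with GSK2256098 (SE 0.056, adjusted p = 5.03e-09) and by 0.41 with VS-4718 (SE 0.056, adjusted p = 1.08e-07), and it fell by 1.58 with degrader 1 (SE 0.074, adjusted p = 2.51e-21). The changes with defactinib (0.16, adjusted p = 0.0424) and IN10018 (-0.18, adjusted p = 0.0467) passed the edgeR threshold narrowly. The defactinib call was lost without DMSO replicate 1 or 2 or defactinib replicate 1 or 2 (adjusted p = 0.0869, 0.163, 0.14 and 0.198), and over all alternatives its adjusted p ranged from 0.011 to 0.198. The IN10018 call was lost without any 1 of the 6 libraries (adjusted p from 0.0583 to 0.167), and also with library totals, no filter and thinned libraries (adjusted p = 0.0553, 0.0662 and 0.137). The summed fibroblast markers, at 759 to 794 CPM in DMSO, were at 1192 to 1219 CPM with GSK215, 1009 to 1058 with VS-4718, 915 to 963 with BSJ-04-0146, 886 to 943 with GSK2256098 and 638 to 655 with degrader 1. They were at 886 to 984 CPM with defactinib and at 737 to 789 CPM with IN10018, which overlapped DMSO. In DMSO, *Col1a1* and *Col3a1* made up most of this sum (392 and 344 CPM), and *Dcn* and *Lum* were at 0. The summed Schwann cell markers were above DMSO (72.1 to 75.8 CPM) with GSK215 (303 to 316) and BSJ-04-0146 (278 to 304). They were also above it with degrader 1 (80.9 to 86.9 CPM), where *Ccl2* was lower. The part of either set of markers in the *Ccl2* values was not tested. *Gm17268* is annotated on the opposite strand with a span that overlaps *Ccl2*. The strand setting of the counting is not given, so whether its reads affect the *Ccl2* counts is not known.

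*Csf1* (chr3:107741048-107760469, minus strand), the gene of macrophage colony-stimulating factor, a growth and survival factor for macrophages, had the highest counts of the 10 genes (4351 to 13885). Its levels did not follow those of *Ccl2*. DMSO libraries had 461, 458 and 463 CPM, and degrader 1 libraries 229, 227 and 231 CPM. BSJ-04-0146 libraries had 289, 297 and 313 CPM and GSK215 libraries 382, 381 and 392 CPM. Thus the 3 degraders all lay below DMSO without overlap. IN10018 libraries were also lower, at 391, 395 and 391 CPM, and overlapped those of GSK215. Defactinib libraries were the highest, at 545, 537 and 547 CPM. VS-4718 libraries (462, 465 and 444 CPM) overlapped DMSO, and GSK2256098 libraries (470, 478 and 467 CPM) were slightly above it. By the edgeR quasi-likelihood test *Csf1* fell by 1.01 with degrader 1 (SE 0.029, adjusted p = 8.19e-28), by 0.62 with BSJ-04-0146 (SE 0.029, adjusted p = 1.13e-20), by 0.26 with GSK215 (SE 0.029, adjusted p = 5.15e-10) and by 0.23 with IN10018 (SE 0.029, adjusted p = 3.04e-07), all on the log2 scale. With defactinib it rose by 0.24 (SE 0.028, adjusted p = 5.72e-08). The 95% interval of the change was -0.068 to 0.047 for VS-4718 and -0.024 to 0.091 for GSK2256098 (adjusted p = 0.812 and 0.522, same edgeR test). All 5 calls held in every alternative, although with library totals in place of TMM the GSK215 value was -0.14.

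*Cxcl1* (chr5:90891241-90893115, plus strand), a neutrophil-attracting chemokine, was at 2.08, 3.38 and 2.84 CPM in DMSO. GSK215 libraries had 4.53, 4.11 and 3.85 CPM. They were above the DMSO libraries, and the log2 fold change of 0.57 (SE 0.20) passed the threshold (edgeR, adjusted p = 0.0132). That call was lost without DMSO replicate 1 (0.41, adjusted p = 0.0978) or GSK215 replicate 1 (0.51, adjusted p = 0.0512). In the other 6 groups the means ranged from 2.47 to 3.13 CPM, and the libraries of each overlapped DMSO. Their 95% intervals included no change, and the lowest bound was -0.61 with degrader 1 and the highest 0.58 with BSJ-04-0146.

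Among the feedback genes, *Nfkbia* (chr12:55489410-55492647, minus strand), which encodes IkB-alpha, the inhibitor that NF-kB itself induces, came closest to the pattern of *Ccl2*: over the 8 group means of log2(CPM + 4) the correlation of the 2 genes was r = 0.93, a description over groups that share libraries and depth with every other gene. DMSO libraries had 44.2, 43.9 and 44.9 CPM and degrader 1 libraries 27.2, 29.6 and 26.8 CPM. GSK215 libraries had 57.4, 60.5 and 63.2 CPM, BSJ-04-0146 libraries 62.7, 63.2 and 56.1 CPM and VS-4718 libraries 59.6, 55.4 and 56.1 CPM. The last 3 groups were above DMSO, and degrader 1 was below every other group. GSK2256098 (52.2, 49.2 and 47.6 CPM) and IN10018 (47.6, 47.6 and 47.8 CPM) were above DMSO without overlap, and defactinib (38.9, 41.7 and 43.6 CPM) was below it. In the edgeR test *Nfkbia* rose by 0.45 with GSK215 (SE 0.050, adjusted p = 5.15e-10), by 0.45 with BSJ-04-0146 (SE 0.050, adjusted p = 4.47e-10) and by 0.36 with VS-4718 (SE 0.048, adjusted p = 7.7e-08), and it fell by 0.67 with degrader 1 (SE 0.055, adjusted p = 7.73e-14). The GSK2256098 increase of 0.16 (adjusted p = 0.0233) was lost without DMSO replicate 1 or 2 (adjusted p = 0.0663 and 0.0812) or GSK2256098 replicate 1 or 2 (adjusted p = 0.147 and 0.0518). For IN10018 and defactinib the values of 0.10 and -0.10 did not pass (adjusted p = 0.179 in both, edgeR).

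*Tnfaip3* (chr10:19000910-19015657, minus strand) encodes A20, a ubiquitin-editing enzyme that shuts off signalling downstream of TNF receptors. DMSO libraries had 26.2, 25.8 and 25.2 CPM. BSJ-04-0146 libraries had 19.9, 19.2 and 19.0 CPM, GSK215 libraries 20.3, 20.9 and 20.2 CPM, degrader 1 libraries 20.1, 22.3 and 21.0 CPM and defactinib libraries 21.3, 21.6 and 21.4 CPM. These 12 libraries were below every DMSO library, and the 3 VS-4718 libraries (29.3, 29.1 and 28.9 CPM) were above. The log2 fold changes were -0.41 (SE 0.061, adjusted p = 3.28e-07) for BSJ-04-0146, -0.33 (SE 0.060, adjusted p = 1.34e-05) for GSK215, -0.29 (SE 0.059, adjusted p = 4.89e-05) for degrader 1 and -0.26 (SE 0.057, adjusted p = 6.84e-04) for defactinib in the edgeR test. For VS-4718 the increase was 0.18 (SE 0.054, adjusted p = 0.00768). These 5 calls held in every alternative, and with library totals the GSK215 value was -0.21. With GSK215 and BSJ-04-0146, then, *Tnfaip3* was lower and *Nfkbia* higher in the same libraries, whereas with VS-4718 both were higher and with degrader 1 both were lower.

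*Birc3* (chr9:7848699-7873186, minus strand), which encodes cIAP2, a ubiquitin ligase of the TNF receptor complex and an NF-kB target, passed the threshold against DMSO with none of the 7 compounds in edgeR. An unadjusted p under 0.05 was reached with 1 compound, GSK215. Its edgeR adjusted p was 0.0619, and limma-trend on log2(CPM + 4) called it (adjusted p = 0.04) while DESeq2 did not. DMSO libraries had 1.85, 1.58 and 1.90 CPM and GSK215 libraries 2.89, 3.05 and 1.83 CPM. For GSK215 the log2 fold change was 0.53 (95% interval 0.040 to 1.02), and it passed under 5 of 13 alternatives, among them without GSK215 replicate 3 (0.75, adjusted p = 0.0151). With degrader 1 the libraries disagreed, at 49, 22 and 19 counts. Without degrader 1 replicate 1 the log2 fold change went from -0.25 (adjusted p = 0.414) to -0.72 (adjusted p = 0.0298, edgeR). Over the 7 compounds the 95% intervals reached from -0.78 at the lowest to 1.02 at the highest, and the change of *Birc3* is therefore not judged.

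Of the subunit genes, *Nfkb2* (chr19:46304320-46312385, plus strand), which encodes p100, the precursor of p52 in the noncanonical branch, showed the clearest decreases. DMSO libraries had 133, 133 and 136 CPM. GSK215 libraries had 93.0, 93.4 and 92.9 CPM and BSJ-04-0146 libraries 89.2, 91.3 and 93.4 CPM, the lowest 6 of the 24. VS-4718 libraries had 119, 109 and 110 CPM, degrader 1 libraries 120, 120 and 111 CPM and defactinib libraries 113, 116 and 123 CPM. These 3 groups overlapped one another and lay below DMSO, while GSK2256098 (129.5 to 133 CPM) and IN10018 (131 to 140 CPM) overlapped DMSO. In the edgeR test *Nfkb2* fell by 0.55 with BSJ-04-0146 (SE 0.039, adjusted p = 2.97e-15), by 0.52 with GSK215 (SE 0.039, adjusted p = 1.25e-14) and by 0.25 with VS-4718 (SE 0.037, adjusted p = 7.31e-07). The decreases were 0.20 with degrader 1 (SE 0.038, adjusted p = 1.71e-05) and 0.19 with defactinib (SE 0.037, adjusted p = 2.32e-04). With library totals the degrader 1 value was -0.11, and all 5 calls held in every alternative. The 95% intervals for GSK2256098 (-0.10 to 0.047) and IN10018 (-0.069 to 0.081) included no change. *Psd* and *AC114539.1* are annotated over part of *Nfkb2* on the opposite strand, so its counts carry the same strand uncertainty as those of *Ccl2*.

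*Nfkb1* (chr3:135584655-135691547, minus strand), the gene of p105 and p50, varied little, with group means from 124 to 149 CPM and a ratio of 1.21 between the highest and the lowest. DMSO libraries had 139, 137 and 141 CPM and VS-4718 libraries, the highest, 149, 145 and 154 CPM. Defactinib (126, 131 and 125 CPM), degrader 1 (123, 126 and 126 CPM) and BSJ-04-0146 (126, 122 and 123 CPM) were below DMSO without overlap. The log2 fold changes were -0.17 for BSJ-04-0146 (SE 0.032, adjusted p = 2.18e-05), -0.16 for degrader 1 (SE 0.032, adjusted p = 3.77e-05), -0.13 for defactinib (SE 0.031, adjusted p = 0.00202) and 0.10 for VS-4718 (SE 0.031, adjusted p = 0.00578) by edgeR. GSK215 (0.0053), GSK2256098 (-0.033) and IN10018 (-0.064) gave values that did not pass. With library totals, which moved the median of all genes by 0.08 to 0.12 for the degraders, BSJ-04-0146 was at -0.059 (adjusted p = 0.12), degrader 1 at -0.074 and GSK215 at 0.13 (adjusted p = 7.94e-04). Relative to that median the *Nfkb1* values were the same under both scalings to 2 decimals, -0.19, -0.16 and -0.02. With libraries thinned to the smallest total VS-4718 was at 0.082 (adjusted p = 0.0699). *Gm43430* is annotated within the same span on the same strand.

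*Rela* (chr19:5637483-5648130, plus strand) encodes p65, the main transactivating subunit of the canonical branch. Its group means ran from 84.5 CPM with degrader 1 to 109 CPM with VS-4718, and each group overlapped the next in order. DMSO libraries had 85.8, 90.3 and 94.0 CPM and VS-4718 libraries 110, 116 and 100.1 CPM, above every DMSO library. The VS-4718 increase of 0.27 (SE 0.045, adjusted p = 5.13e-06, edgeR) held in every alternative. For GSK2256098, with libraries at 94.3, 104 and 103 CPM, the increase was 0.15 (adjusted p = 0.0198). It was lost without DMSO replicate 1 or 2 (adjusted p = 0.134 and 0.0547) or GSK2256098 replicate 2 or 3 (adjusted p = 0.119 and 0.0971). For BSJ-04-0146 the increase was 0.11 (adjusted p = 0.0446), and it was lost without DMSO replicate 1 or 2 or any 1 of the 3 BSJ-04-0146 libraries (adjusted p from 0.053 to 0.214), with DESeq2 (adjusted p = 0.0854) and with no filter (adjusted p = 0.133). The GSK215 value of 0.092 (adjusted p = 0.0934) passed without DMSO replicate 3 (adjusted p = 0.0435) or GSK215 replicate 1 (adjusted p = 0.0443), and the degrader 1 value of -0.092 (adjusted p = 0.0802) passed without DMSO replicate 1 (adjusted p = 0.032, edgeR). Defactinib and IN10018 gave 0.093 and 0.11 (adjusted p = 0.15 and 0.118). With only the 6 libraries compared, edgeR also called GSK215 (adjusted p = 0.0435) and degrader 1 (adjusted p = 0.0442). With library totals the values were 0.21 for GSK215 (adjusted p = 1.59e-04), 0.22 for BSJ-04-0146 (adjusted p = 1.28e-04) and -0.01 for degrader 1, and relative to the median of all genes they were 0.07, 0.09 and -0.10 under both scalings.

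*Relb* (chr7:19606217-19629438, minus strand), the partner of p52 and itself an NF-kB target, had 253 to 438 counts per library. DMSO libraries spread from 12.1 to 15.4 CPM. Degrader 1 libraries, at 20.1, 19.5 and 17.4 CPM, were the only group whose increase held in every alternative, 0.45 on the log2 scale (SE 0.083, adjusted p = 8.5e-06, edgeR). Thus *Relb* was higher in the libraries in which *Ccl2*, *Csf1*, *Nfkbia*, *Tnfaip3*, *Nfkb1* and *Nfkb2* were lower. GSK215 libraries had 16.6, 17.2 and 16.0 CPM and BSJ-04-0146 libraries 15.7, 16.2 and 17.7 CPM, all above DMSO, with increases of 0.25 (adjusted p = 0.0123) and 0.25 (adjusted p = 0.0139). The first was lost without DMSO replicate 1 (adjusted p = 0.116) or GSK215 replicate 2 (adjusted p = 0.0567) and with libraries thinned (adjusted p = 0.0601), the second without DMSO replicate 1 (adjusted p = 0.126) or BSJ-04-0146 replicate 3 (adjusted p = 0.0899). IN10018 libraries (14.7, 17.6 and 18.2 CPM) overlapped DMSO, and the increase of 0.28 (adjusted p = 0.0221) was lost without DMSO replicate 1 or 3 or IN10018 replicate 2 or 3 (adjusted p from 0.052 to 0.167) and with libraries thinned (adjusted p = 0.111). For GSK2256098 the value of 0.22 (adjusted p = 0.0693) did not pass, and over the 13 alternatives it ranged from 0.12 with libraries thinned (adjusted p = 0.523) to 0.31 without DMSO replicate 2 (adjusted p = 0.0259), the only 1 of them that passed. Without DMSO replicate 1 it was 0.14 (adjusted p = 0.376, edgeR). VS-4718 and defactinib gave 0.071 (95% interval -0.097 to 0.24) and -0.12 (-0.30 to 0.052).

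Compounds given at the same dose were then compared with each other, in 10 pairs at 1 µM and 1 pair at 0.1 µM, with p-values adjusted over 16070 genes within each pair. Degrader 1 stood apart from the 4 kinase inhibitors at 1 µM. It was below each of them in *Ccl2*, by log2 differences of 1.40 (IN10018) to 2.11 (GSK2256098), in *Csf1*, by 0.78 (IN10018) to 1.25 (defactinib), and in *Nfkbia*, by 0.57 (defactinib) to 1.04 (VS-4718). The largest adjusted p among these 12 differences was 7.8e-12 (edgeR), and the libraries of the pairs did not overlap for any of them. Such non-overlap was common, with 11280, 11245, 11291 and 10609 of 16070 genes in the pairs with defactinib, VS-4718, GSK2256098 and IN10018. *Rela* was also lower with degrader 1 than with each inhibitor, by 0.18 to 0.36 (adjusted p = 6.18e-04 or smaller). *Relb* was higher than with defactinib by 0.57 (adjusted p = 1.47e-07), VS-4718 by 0.38 (adjusted p = 8.77e-05) and GSK2256098 by 0.23 (adjusted p = 0.0141), and the last was lost without degrader 1 replicate 1 (adjusted p = 0.0851). Of the 10 genes, 5, 8, 8 and 7 passed in the pairs of degrader 1 with defactinib, VS-4718, GSK2256098 and IN10018, where 68.9%, 68.9%, 67.6% and 63.5% of all genes passed. The 8 genes for VS-4718 include *Birc3*, with a log2 difference of 0.56 (adjusted p = 0.0465) that was lost without VS-4718 replicate 1, 2 or 3 or degrader 1 replicate 2 or 3 (adjusted p from 0.0517 to 0.25).

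Among the kinase inhibitors, GSK2256098 and IN10018 differed in 2 of 10 genes, beside 20.9% of all genes. *Ccl2* was higher with GSK2256098 by 0.70 (SE 0.058, adjusted p = 2.75e-12) and *Csf1* by 0.27 (SE 0.029, adjusted p = 3.17e-09, edgeR). Defactinib differed from VS-4718 in 6 of 10 genes (34.0% of all genes), from GSK2256098 in 7 of 10 (11.5%) and from IN10018 in 6 of 10 (34.5%). The 7 for GSK2256098 include *Nfkb1* (-0.096, adjusted p = 0.0392). The *Nfkb1* call was lost without defactinib replicate 1 or 3 or GSK2256098 replicate 2 or 3 (adjusted p from 0.111 to 0.15). It was also lost with library totals, no filter, only the 6 libraries and thinned libraries (adjusted p = 0.0558, 0.135, 0.0647 and 0.121, edgeR). *Relb* (-0.35, adjusted p = 0.00474) was lost with libraries thinned (adjusted p = 0.0905). In each of the 3 pairs defactinib had the higher *Csf1*, by 0.25, 0.20 and 0.47, and the lower *Tnfaip3*, by 0.44, 0.27 and 0.35, and the lower *Nfkbia*, by 0.46, 0.26 and 0.20 (adjusted p = 0.00176 or smaller for each). *Ccl2* was lower with defactinib than with VS-4718 by 0.25 (adjusted p = 3.23e-04) and than with GSK2256098 by 0.37 (adjusted p = 8.1e-06), and higher than with IN10018 by 0.33 (adjusted p = 2.2e-05). VS-4718 differed from GSK2256098 in 5 of 10 genes (27.1% of all genes) and from IN10018 in 7 of 10 (40.9%). VS-4718 had the lower *Nfkb2* in both pairs, by 0.22 (adjusted p = 1.38e-05) and 0.25 (adjusted p = 4.94e-07). The 7 for IN10018 include *Relb* (-0.20, adjusted p = 0.0441), lost without VS-4718 replicate 3 or IN10018 replicate 2 or 3 (adjusted p from 0.152 to 0.231). That call was also lost with DESeq2 (adjusted p = 0.0541), limma-trend (adjusted p = 0.0723), library totals, thinned libraries and only the 6 libraries. *Rela* (0.16, adjusted p = 0.00337) was lost without VS-4718 replicate 2 (adjusted p = 0.0582, edgeR). The *Ccl2* difference between VS-4718 and GSK2256098 was -0.12 (95% interval -0.22 to -0.0071, adjusted p = 0.11), and it passed without GSK2256098 replicate 3 (-0.18, adjusted p = 0.018). In that pair, calls for *Rela* (0.12, adjusted p = 0.0489) and *Tnfaip3* (0.18, adjusted p = 0.0138) were lost without VS-4718 replicate 1 (adjusted p = 0.165 and 0.0567) or GSK2256098 replicate 1 (adjusted p = 0.297 and 0.105), that for *Tnfaip3* also without GSK2256098 replicate 2 (adjusted p = 0.0572), and that for *Rela* also without VS-4718 replicate 2 or GSK2256098 replicate 3 (adjusted p = 0.34 and 0.0516). The count in that pair was 3 without VS-4718 replicate 1 or GSK2256098 replicate 1. Its *Rela* call was also lost with DESeq2 (adjusted p = 0.0558), limma-trend (adjusted p = 0.0607) and only the 6 libraries (adjusted p = 0.0954, edgeR).

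**Figure D3:**
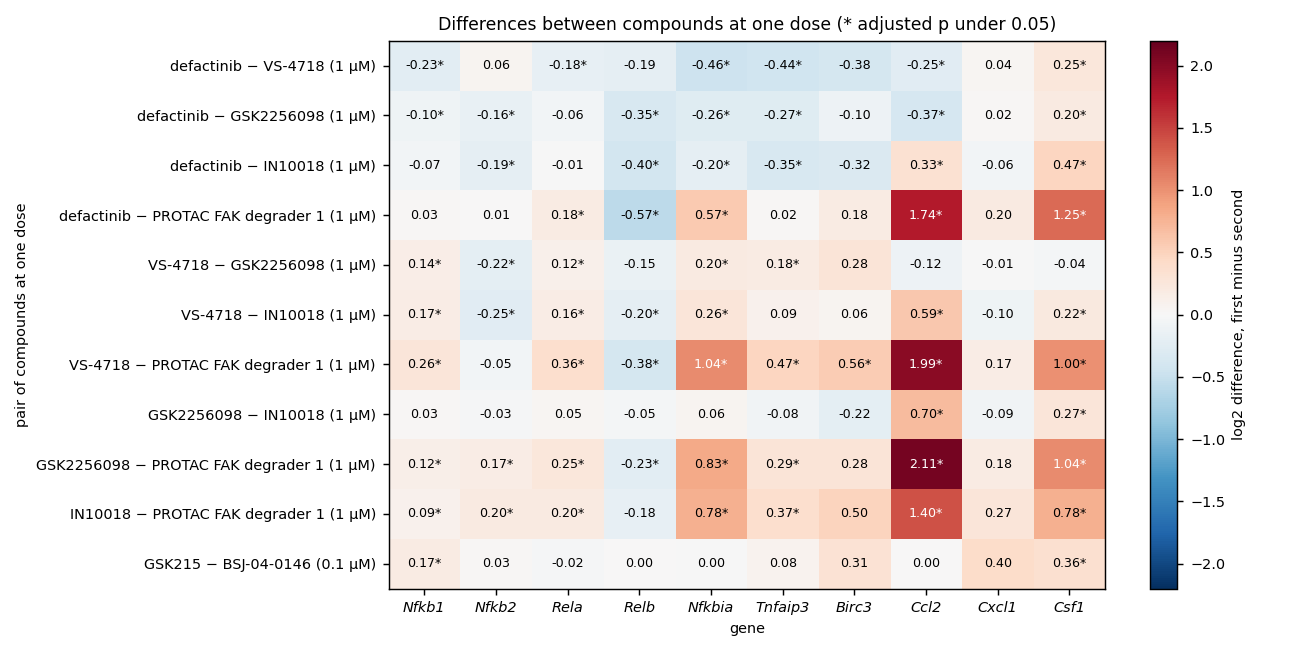
Log2 difference, first compound minus second (color and printed value), for the 10 genes (columns) in 11 pairs of compounds at equal dose (lines of the grid); an asterisk marks adjusted p under 0.05 in edgeR. The darkest cells are those of *Ccl2* against PROTAC FAK degrader 1, from 1.40 to 2.11, and the GSK215 and BSJ-04-0146 pair shows asterisks for *Nfkb1* and *Csf1* alone.

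The degraders at 0.1 µM, GSK215 and BSJ-04-0146, differed in *Csf1*, which was higher with GSK215 by 0.36 (SE 0.029, adjusted p = 4.35e-12), and in *Nfkb1*, higher by 0.17 (SE 0.033, adjusted p = 9.87e-05), that is in 2 of 10 genes beside 22.5% of all genes. Their *Ccl2* levels differed by 0.0028 with a 95% interval of -0.097 to 0.10, and their *Nfkbia* levels by -0.0038 with an interval of -0.10 to 0.097. For *Nfkb2* the interval was -0.056 to 0.11 and for *Tnfaip3* -0.051 to 0.22. The *Cxcl1* difference of 0.40 had an interval of -0.0072 to 0.81 (adjusted p = 0.162), although the GSK215 libraries were all above those of BSJ-04-0146. Degrader 1 was given at a 10-fold higher dose, and its values stand beside these without a test: *Ccl2* was at 9.05 ± 0.443 CPM (SD, n = 3) with degrader 1 at 1 µM, 69.9 ± 1.03 CPM with GSK215 and 69.7 ± 4.11 CPM with BSJ-04-0146 at 0.1 µM.

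A wider list of 75 genes of the pathway, from receptors to further targets, was read for context, and 62 of them had enough counts to be tested. Of the 62, 16 passed with defactinib (9 higher, 7 lower), 17 with VS-4718 (12 and 5), 10 with GSK2256098 (9 and 1), 4 with IN10018 (3 and 1), 41 with degrader 1 (22 and 19), 41 with GSK215 (27 and 14) and 43 with BSJ-04-0146 (28 and 15). Over all 16070 genes the shares past the threshold were 22.4%, 39.2%, 12.5%, 13.3%, 66.8%, 54.7% and 54.6% in the same order. The median absolute log2 fold change of the list was 0.37 with degrader 1, 0.22 with GSK215 and 0.23 with BSJ-04-0146, and that of all genes was 0.41, 0.28 and 0.28. Without DMSO replicate 1 the defactinib count was 10, and without DMSO replicate 2 or GSK2256098 replicate 1 or 3 the GSK2256098 count was 4, 5 or 6.

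At the receptor level 8 of 8 genes tested passed with degrader 1, 3 higher and 5 lower, beside 66.8% of all genes. *Tnfrsf12a*, the receptor for TWEAK, fell from 311 to 125 CPM (log2 fold change -1.31, SE 0.043, adjusted p = 3.27e-26, edgeR), *Tlr3*, a sensor of double-stranded RNA, from 9.45 to 4.57 CPM (-1.05, SE 0.11, adjusted p = 1.2e-10) and *Il1rap*, the interleukin-1 receptor accessory chain, from 56.2 to 29.7 CPM (-0.92, SE 0.055, adjusted p = 6.38e-18). With GSK215 *Tlr3* rose to 13.0 CPM (0.47, adjusted p = 5.67e-05). With defactinib *Il1rap* rose (0.21, adjusted p = 0.00115), and *Tlr3* rose by 0.26 (adjusted p = 0.0418, or 0.06 in DESeq2). Of the 8 receptor genes, those past the threshold were 5 with defactinib, 2 with VS-4718 and 3 with GSK2256098, all higher. IN10018 had 1, lower, GSK215 4 higher and 1 lower, and BSJ-04-0146 3 higher and 2 lower. The shares of all genes were 22.4%, 39.2%, 12.5%, 13.3%, 54.7% and 54.6% in that order. Of 16 adaptors and ubiquitin ligases, 13 passed with degrader 1 and 10 each with GSK215 and BSJ-04-0146, beside 66.8%, 54.7% and 54.6% of all genes. *Traf5* rose with GSK215 from 11.2 to 21.2 CPM (0.92, SE 0.076, adjusted p = 2.24e-13), *Ripk1*, a kinase scaffold of the TNF receptor complex, fell with degrader 1 from 35.3 to 21.3 CPM (-0.72, SE 0.063, adjusted p = 3.73e-13), and *Birc2*, the gene of cIAP1, rose with degrader 1 from 21.5 to 33.1 CPM (0.62, SE 0.056, adjusted p = 1.25e-12). Of 7 kinases, 5 passed with degrader 1, 5 with GSK215 and 6 with BSJ-04-0146, beside the same shares of all genes. With degrader 1 *Map3k14*, the kinase of the noncanonical branch, changed by -0.36 (adjusted p = 2.37e-07), *Ikbkg*, the regulatory subunit of the IkB kinase complex, by 0.35 (adjusted p = 3.77e-08) and *Map3k7*, which acts upstream of that complex, by -0.25 (adjusted p = 2.01e-07).

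Further subunit, IkB and feedback genes also split in direction. Of 6 further subunit and IkB genes, 3 passed with degrader 1, 3 with GSK215 and 4 with BSJ-04-0146. Of 6 further feedback genes, 2, 3 and 4 passed, beside 66.8%, 54.7% and 54.6% of all genes. *Bcl3*, an atypical IkB protein, rose with degrader 1 (0.67, SE 0.10, adjusted p = 2.4e-07, edgeR), with GSK215 (0.50, adjusted p = 8.88e-05) and with BSJ-04-0146 (0.43, adjusted p = 6.74e-04). *Nfkbib*, the gene of IkB-beta, rose with degrader 1 (0.30, adjusted p = 1.38e-04) and fell with GSK215 (-0.43, adjusted p = 4.34e-06) and BSJ-04-0146 (-0.31, adjusted p = 4.89e-04), opposite to *Nfkbia* in the same libraries. With defactinib *Nfkbib* was also lower (-0.20, adjusted p = 0.0315), and there *Nfkbia* was at -0.10 (adjusted p = 0.179). That *Nfkbib* call was lost without DMSO replicate 1 (adjusted p = 0.0857) and with libraries thinned (adjusted p = 0.103). *Nfkbiz* fell with degrader 1 (-0.41, adjusted p = 7.87e-07). *Tnip2* rose with degrader 1 from 18.0 to 30.4 CPM (0.76, SE 0.064, adjusted p = 2.09e-13), and *Otulin*, a deubiquitinase of linear chains, fell with all 3 degraders (-0.43, -0.34 and -0.38 for degrader 1, GSK215 and BSJ-04-0146; adjusted p = 6.86e-04 or smaller). *Cyld*, another deubiquitinase that restrains the pathway, fell with BSJ-04-0146 (-0.41, SE 0.039, adjusted p = 1.32e-11), GSK215 (-0.24, adjusted p = 1.46e-06) and defactinib (-0.20, adjusted p = 1.03e-04), as *Tnfaip3* did, and was at 0.055 with degrader 1 (adjusted p = 0.196, or 0.14 and 0.0018 with library totals).

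Of 10 further secreted targets tested, 8 passed with GSK215 (7 higher, 1 lower), 6 with BSJ-04-0146 (5 higher, 1 lower) and 5 with degrader 1 (2 higher, 3 lower), where 54.7%, 54.6% and 66.8% of all genes passed. *Cxcl5*, a neutrophil-attracting chemokine like *Cxcl1*, rose from 11.0 CPM in DMSO to 36.3 CPM with GSK215 (1.73, SE 0.072, adjusted p = 2.03e-22) and also rose with BSJ-04-0146 (1.30, SE 0.075, adjusted p = 5.88e-18), and fell to 6.88 CPM with degrader 1 (-0.67, SE 0.093, adjusted p = 4.22e-08, edgeR). It also rose with GSK2256098 (0.43, adjusted p = 1.46e-04), VS-4718 (0.39, adjusted p = 8.67e-05) and defactinib (0.30, adjusted p = 0.00428), and with IN10018 it was at 0.041 (adjusted p = 0.815, edgeR). *Cx3cl1*, a membrane-bound chemokine, rose with GSK215 (1.04, adjusted p = 4.26e-16) and BSJ-04-0146 (0.79, adjusted p = 2.23e-12) and was at -0.027 with degrader 1 (adjusted p = 0.769). *Cxcl10* rose with degrader 1 (0.74, adjusted p = 2.3e-08) and GSK215 (0.52, adjusted p = 4.73e-05). Of the remaining targets, *Tnfaip2* rose with 6 of 7 compounds, most with BSJ-04-0146 (18.1 to 51.9 CPM, 1.52, SE 0.053, adjusted p = 1.03e-24). Its increases with VS-4718 (0.17, adjusted p = 0.0155) and GSK2256098 (0.20, adjusted p = 0.0157) were lost without DMSO replicate 1 (adjusted p = 0.0548 and 0.0621) or 2 (adjusted p = 0.052 and 0.0604), and without VS-4718 replicate 1 (adjusted p = 0.0984) or GSK2256098 replicate 2 or 3 (adjusted p = 0.051 and 0.0604). *Ptgs2*, the gene of cyclooxygenase 2, fell with BSJ-04-0146 (-1.40, SE 0.096, adjusted p = 9.32e-16), degrader 1 (-0.84, adjusted p = 2.84e-11) and GSK215 (-0.62, adjusted p = 6.21e-08). *Gadd45b* fell with GSK215 (-0.70, adjusted p = 3.85e-13) and BSJ-04-0146 (-0.68, adjusted p = 8.01e-13), and also with defactinib (-0.23, adjusted p = 0.00115).

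**Figure D4:**
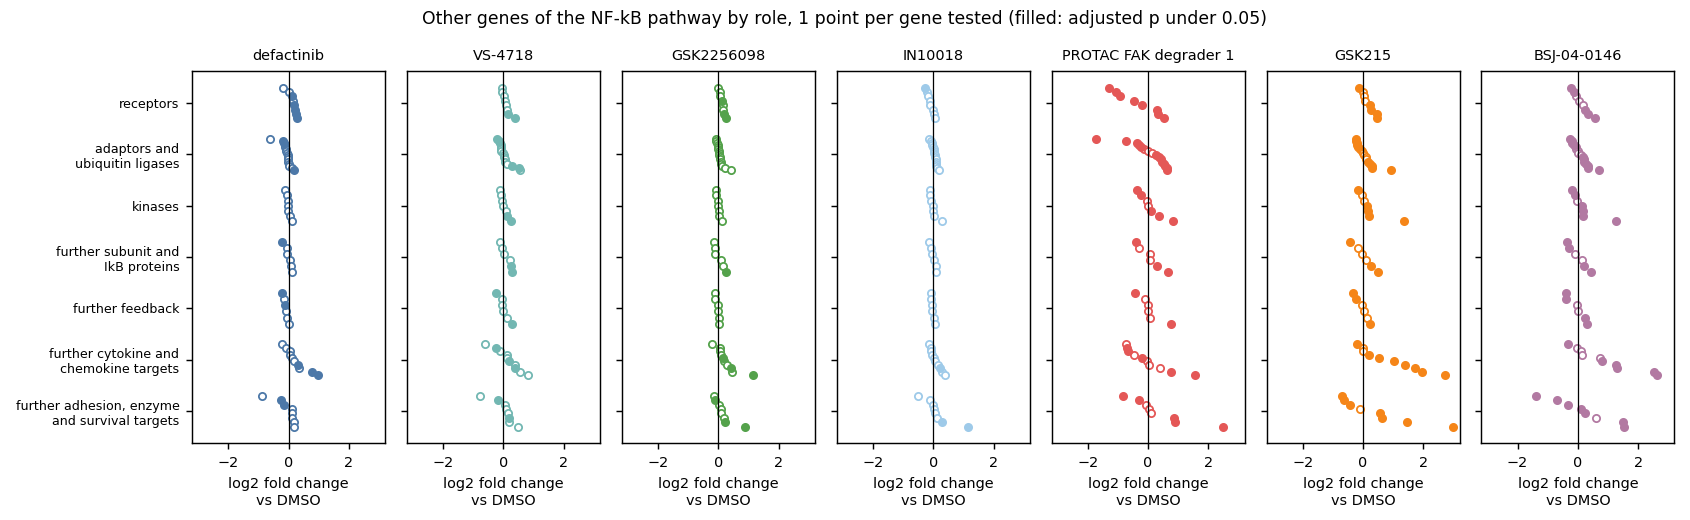
Log2 fold change against DMSO (horizontal axis) of the pathway genes tested, grouped by role (vertical axis), 1 point per gene, filled for adjusted p under 0.05 in edgeR; receptors of the 3 secreted members are not drawn. The points farthest to the right, up to 2.98, are targets with GSK215, BSJ-04-0146 and degrader 1, some of them genes under 5 CPM that the text does not name, and over the 7 compounds each role holds points on both sides of 0.

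Several hallmark NF-kB targets were too low to test in these cells. *Il6* never exceeded 3 counts and was at 0 in 15 of 24 libraries, *Tnf* never exceeded 1 (0 in 17) and *Il1b* never exceeded 2 (0 in 23). *Cxcl2*, *Cxcl3*, *Icam1* and *Nlrp3* had at most 8, 2, 7 and 3 counts, and the receptors *Tlr2* and *Cd40* at most 9 and 1. The receptors that answer *Ccl2* and *Cxcl1* were near 0, with *Ccr2* and *Cxcr2* at most at 1 count in any library. *Csf1r*, the receptor for *Csf1*, had 3 to 20 counts. Unlike the genes above it was tested, and against DMSO it passed only with BSJ-04-0146, higher by 1.11 on the log2 scale (edgeR). It also passed as higher with defactinib (1.31) and VS-4718 (1.42) than with degrader 1, all at these low counts.

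Genes whose group means of log2(CPM + 4) followed a member most closely over the 8 groups, among 9863 genes with at least 5 CPM, are given as a description. They included *Abcb1b* for *Csf1* (r = 0.995), and they were for *Ccl2* *Tapbp* (0.989) and *Slc16a11* (0.987), and for *Nfkbia* *D11Wsu47e* (0.992) and *Hmgn3* (0.991). Those of *Nfkb2* were *Hgh1* (0.989) and *Serbp1* (0.988), those of *Tnfaip3* *Ppp1r12b* (0.984) and *Mrpl21* (0.976), and those of *Rela* *Ier5l* (0.967) and *Snrnp70* (0.966). *Relb* was followed by *Gorasp1* (0.972) and *Traf2* (0.955), the latter an adaptor of the same pathway. *Nfkb1* had the lowest values of the 10, with *Map3k14* (0.923) and *Myo9b* (0.921). For the low genes the values were 0.966 and 0.963 (*Birc3* with *Cyb5rl* and *Mettl3*) and 0.948 and 0.936 (*Cxcl1* with *Pisd-ps1* and *Fgf2*).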

How the data were processed

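Poly(A) RNA of 24 libraries in 8 groups of 3 was sequenced. The authors deposited raw counts per gene. The submitters' processing notes name Trimmomatic 0.36, STAR 2.5.2b, featureCounts of Subread 1.5.2 and GRCm38. The strand setting and annotation release are not given in the sources used here. Groups were taken from the sample labels. Of 49315 genes, 174 lacked a symbol. Counts were filtered with filterByExpr (minimum count 10), scaled with TMM and tested with the quasi-likelihood test of edgeR 4.0.16 (R 4.3.3) in 1 model of 8 groups with 16 residual degrees of freedom, with Benjamini-Hochberg adjustment over 16070 genes in each of 18 comparisons (7 against DMSO and 11 pairs at equal dose). The threshold was an adjusted p of 0.05, and 95% intervals were derived from the same fit. Library totals were 14472462 to 27449516 counts. Coordinates come from GENCODE M21 (GRCm38) and promoters from RefSeq (GRCm38.p6). The script was tested on simulated data.

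The members and lists were chosen with earlier results of these data known. Named genes are the 10 members, in each role of the pathway list up to 3 genes with the largest change past the threshold and at least 5 CPM, those near 0, and the 2 genes most correlated with each member over group means of log2(CPM + 4). Of these, 1 gene is not reported here. The study's own scale, log2(CPM + 4), was used for correlations and in one alternative.

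Alternatives were library totals in place of TMM, DESeq2 1.42.0, limma-trend (limma 3.58.1) on log2(CPM + 4), no filter, a replicate block, only the 6 libraries compared, libraries thinned to the smallest total, and leaving out each library in turn. No replicates were copies of each other: their counts differed by more than sampling noise in all 24 pairs (chi-square per degree of freedom 1.795 to 9.44).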

Additional observations from a re-analysis of the deposited data

How the results depend on the processing

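Of 70 values of the members against DMSO, 17 changed their side of the threshold under at least 1 alternative (11 lost it, 6 gained it) and no call changed direction. Between compounds 19 of 110 changed (10 lost, 9 gained), and among named pathway genes 29 of 147. Library totals moved the median of all genes by 0.122 with GSK215 and 0.108 with BSJ-04-0146, and values under that scaling are read relative to that shift, so that *Map3k7* with BSJ-04-0146, at 0.0087 under it, is a lost call. With libraries thinned, 1 member passed for IN10018, and with no filter 6 pathway genes passed for GSK2256098. Leaving out 1 library gave 1 to 3 members for GSK2256098, 1 to 2 for IN10018 and 3 to 5 for VS-4718 against GSK2256098, and 10 to 15 pathway genes for defactinib and 4 to 7 for GSK2256098.

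Same-numbered replicates did not pair the libraries (correlations of deviations from -0.18 to 0.153, all over 0.1 in 0 of 7 comparisons). With the replicate number as a block, *Ccl2* with IN10018 (-0.18, adjusted p = 0.0503 in edgeR) and *Rela* between VS-4718 and GSK2256098 (0.12, adjusted p = 0.0525) no longer passed, and no other call on the members changed. *Birc3* and *Cxcl1* had the lowest counts and the widest intervals of the 10 genes.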
